A study of Mus musculus with 6 samples.

Results

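The tumour necrosis factor (TNF) superfamily was examined in mouse liver as 48 protein-coding genes out of 56350 gene IDs in the counts table. They were chosen by gene symbol: every Tnfsf and Tnfrsf gene with a number, the members with older names (Tnf, Lta, Ltb, Ltbr, Cd40, Cd40lg, Cd27, Cd70, Fas, Fasl and Ngfr), and the TRAF genes Traf1 to Traf6. The set held 17 ligand genes, 25 receptor genes and 6 TRAF genes. The antisense gene Tnfsf13os matched the symbol pattern but is not protein-coding and was left out.

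Bulk RNA sequencing of liver compared 3 libraries labelled as a hepatocyte-specific Atg14 knockout (HepKO) with 3 libraries labelled wild-type (WT). The Atg14 protein directs the class III lipid kinase to the membranes on which autophagosomes form. The sources used here do not give the age, sex, diet or Cre line of the mice. They also do not state whether the WT mice carried loxP-flanked alleles, or whether each library was made from its own mouse. The p-values therefore describe the spread between these libraries, and how much of it is technical was not tested. Between libraries of a group, the chi-square per degree of freedom was 27.1 to 137 in HepKO and 66.0 to 89.9 in WT, far over counting error alone.

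TNF superfamily ligands are mostly trimeric membrane proteins that can be shed from the cell surface, and their receptors either recruit TRAF adaptor proteins, which lead to NF-kB and MAP kinase signalling, or carry a death domain through which caspases can be activated. In liver, hepatocytes carry receptors such as Fas and Tnfrsf1a, while most ligands are made by immune, endothelial and other non-parenchymal cells. Several receptors act as decoys that bind a ligand without signalling.

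Total counts ranged from 33145684 to 48951937 in HepKO and from 35720011 to 41754560 in WT. Atg14 itself had 329, 379 and 313 counts in HepKO replicates 1 to 3 and 620, 796 and 719 counts in WT replicates 1 to 3 (log2 fold change -1.54 ± 0.16, SE; edgeR FDR 2.90e-04). HepKO replicate 1 stood apart by its sex-linked genes, with 30377 Xist counts and 3 counts of the Y-linked gene Ddx3y. The other 5 libraries had 2 to 22 Xist counts and 2596 to 3482 Ddx3y counts. By these genes HepKO replicate 1 was female and the other 5 libraries male, so sex was not balanced between the groups. For members and lists described below, a call or count that changed without that library is given with that change. The hepatocyte markers, with Alb at their head, were present in every library, at 43311 to 53495 summed counts per 1000000 (CPM) in HepKO and 98597 to 122554 CPM in WT for 10 genes. CPM values here use library totals scaled by the trimmed mean of M-values (TMM). The choice of scaling matters in these libraries: over the 16051 tested genes the median log2 fold change was 0.01 with TMM scaling but 0.52 with unscaled library totals.

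Of the 48 members, 31 had enough counts to be tested and 17 were too low to measure. Among the 31, 20 rose in HepKO, 1 fell and 10 were not called at a false discovery rate (FDR) under 0.05 in edgeR's quasi-likelihood test. Over all tested genes 19.4% were called higher and 18.8% lower. The count filter itself bears on these numbers, since 9 of the 31 tested members were over its cutoff in all 3 HepKO libraries but not in all 3 WT libraries, so that they passed only through HepKO. They were Tnf, Ltb, Fasl, Tnfsf13, Tnfrsf22, Tnfrsf13b, Cd40, Cd27 and Traf1. Of the 21 members above the filter's cutoff in all 3 WT libraries, 13 rose and 1 fell, where 18.2% of all such genes rose and 22.2% fell. The median log2 fold change of the 31 was 0.86 under TMM and 1.37 under library totals. Under library totals 24 members were called higher and 0 lower, against a background of 46.3% higher and 5.76% lower. HepKO libraries lay above all WT libraries in CPM for 22 tested members and below for 1, compared with 27.1% and 26.4% of all tested genes. The members called higher numbered 13 without HepKO replicate 1, 10 without HepKO replicate 3, 12 without WT replicate 1 and 10 without WT replicate 3. The 8 members called higher in each alternative scaling, filter, tool and left-out library, and at an FDR under 0.01, were Tnfrsf12a, Tnfrsf10b, Tnfrsf11a, Tnfrsf23, Cd40, Ltb, Tnfrsf21 and Traf3, although the last pair rose by less than 2-fold, and Cd40 and Ltb are among the members that passed the filter only through HepKO.

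**Figure D1:**
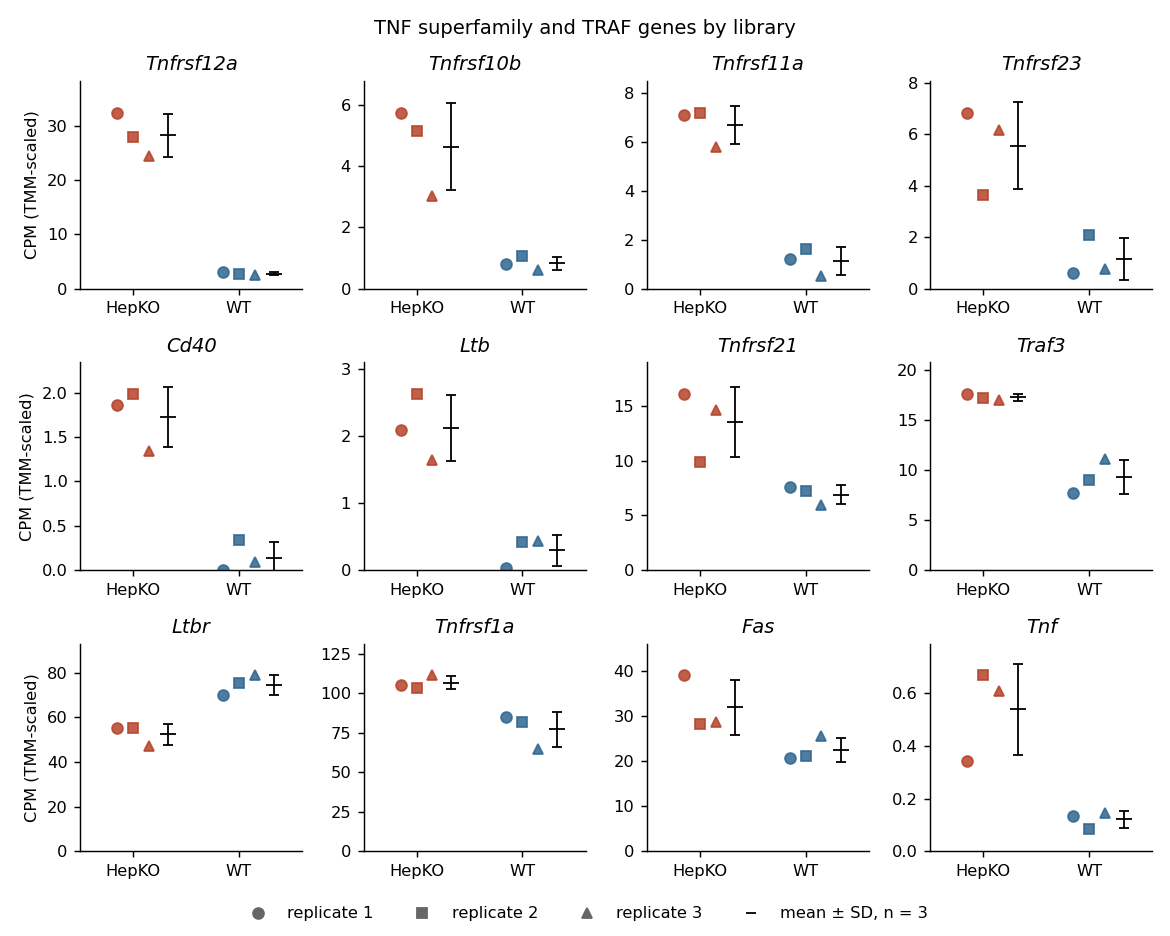
CPM (TMM-scaled) of 12 members in each of the 3 HepKO and 3 WT libraries, with the mean ± SD at the right of each group (the bar of Cd40 in WT is cut at 0). The HepKO libraries lie above all WT libraries in 11 panels, by the widest margin in proportion for Cd40 and Tnfrsf12a, and below them for Ltbr.

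**Figure D2:**
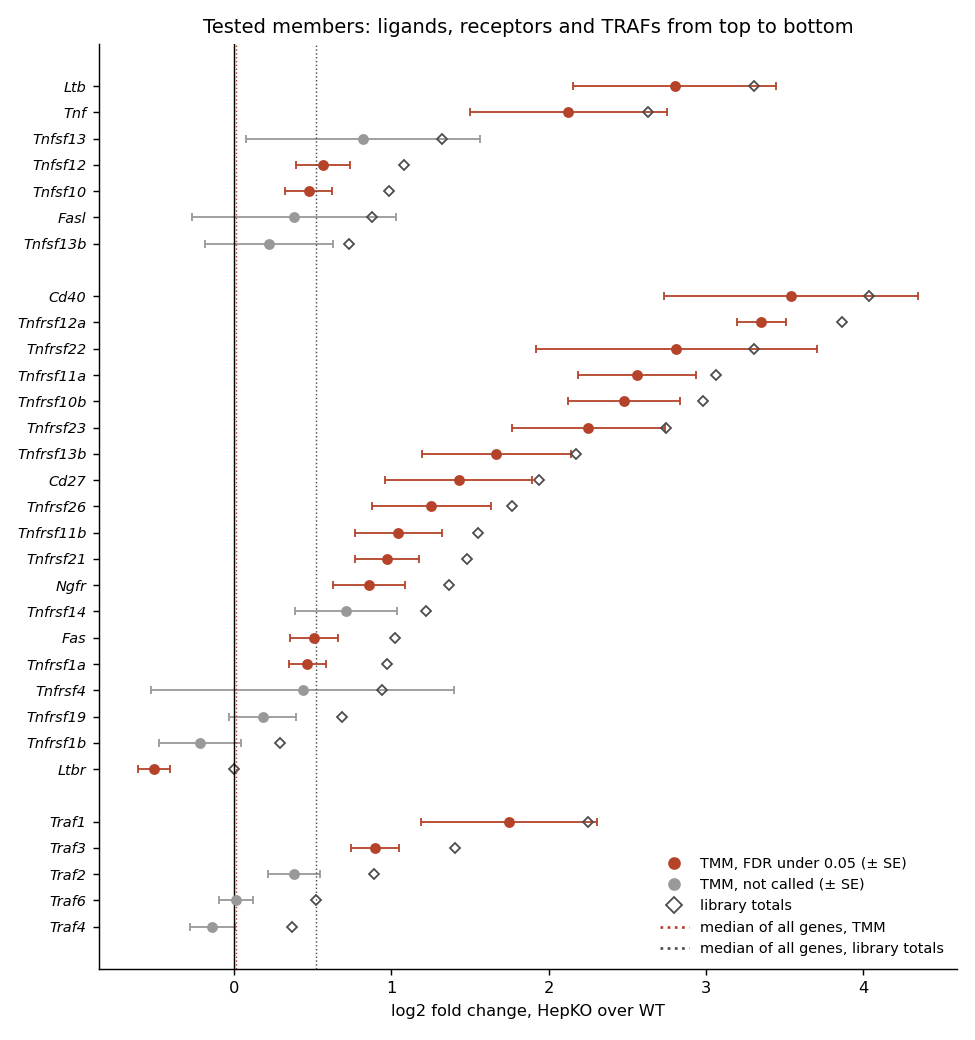
Log2 fold change, HepKO over WT, of the 31 tested members under TMM scaling (circles, ± SE, red where FDR is under 0.05) and under library totals (diamonds). Dotted lines mark the medians of all genes, 0.01 and 0.52, and Ltbr lies at -0.51 under TMM and at 0.00 under library totals.

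Tnfrsf12a, the receptor for the cytokine TWEAK, gave the lowest p of the family. It had 32.4, 28.0 and 24.5 CPM in HepKO replicates 1 to 3, against 3.04, 2.73 and 2.55 CPM in WT replicates 1 to 3. Each group was tight and the gap between them was wide, with 964 to 1882 counts in HepKO libraries and 87 to 98 in WT libraries. The rise was 10.2-fold (log2 fold change 3.35 ± 0.16, FDR 2.11e-05), and the gene occupies chromosome 17 from 23675445 to 23677468, minus strand, in GRCm38 (mm10). Its ligand gene Tnfsf12, which encodes TWEAK, had 8.04, 8.40 and 6.88 CPM in HepKO and 5.30, 4.96 and 5.50 CPM in WT (log2 fold change 0.57 ± 0.17, FDR 0.0296). The Tnfsf12 groups did not overlap, but its call was lost without HepKO replicate 1 or 2 or any single WT library, at FDRs of 0.0586 to 0.0964. Of the Tnfsf12 exon sequence, 48.3% is shared on the same strand with the readthrough gene Tnfsfm13, so the counts of the pair may have been split.

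The TRAIL receptors were higher in every HepKO library than in any WT library. Tnfrsf10b, the signalling TRAIL receptor of the mouse and a death domain protein, had 5.73, 5.13 and 3.02 CPM in HepKO and 0.811, 1.06 and 0.615 CPM in WT. This was a rise of 5.57-fold (log2 fold change 2.48 ± 0.35, FDR 0.00103), on chromosome 14 from 69767472 to 69784411, plus strand. Tnfrsf23, a decoy receptor for TRAIL in the mouse, had 6.84, 3.63 and 6.17 CPM in HepKO and 0.608, 2.09 and 0.761 CPM in WT (log2 fold change 2.25 ± 0.48, FDR 0.00749). Without WT replicate 2, the highest WT library, its log2 fold change was 3.03. The other mouse decoy, Tnfrsf22, had 209, 112 and 202 counts in HepKO and 0, 38 and 17 counts in WT (log2 fold change 2.81 ± 0.89, FDR 0.0442). That call was lost without any single HepKO library or without WT replicate 3, at FDRs of 0.0689 to 0.143, and the log2 fold change was 3.86 without WT replicate 2. The ligand gene Tnfsf10, which encodes TRAIL, had 17.2, 17.3 and 22.6 CPM in HepKO and 13.7, 15.1 and 12.4 CPM in WT. Its rise was small (log2 fold change 0.47 ± 0.15, FDR 0.0331) and was not called without HepKO replicate 3, WT replicate 1 or WT replicate 3 (FDRs of 0.0814 to 0.124).

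Tnfrsf26, whose gene lies beside both decoys on the minus strand of chromosome 7, had 1.41, 1.29 and 2.01 CPM in HepKO and 0.710, 0.557 and 0.703 CPM in WT (log2 fold change 1.25 ± 0.38, FDR 0.0296). Its groups did not overlap, but the call was lost without HepKO replicate 1 or 3 or any single WT library (FDRs of 0.0519 to 0.105). Only 6.08 kb separate Tnfrsf26 from Tnfrsf22, and 16.1 kb separate Tnfrsf22 from Tnfrsf23. These 3 genes are related in sequence, so reads could have been dropped or split between them, and their separate values are uncertain. An antisense gene also overlaps 4.14% of the Tnfrsf23 exons and 3.33% of the Tnfrsf26 exons, and whether reads were counted by strand is not stated in the labels.

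The RANK system also rose on the receptor side. Tnfrsf11a, which encodes RANK, had 7.09, 7.18 and 5.77 CPM in HepKO and 1.22, 1.64 and 0.527 CPM in WT. The HepKO libraries all exceeded the highest WT library by over 4 CPM, and the rise was 5.90-fold (log2 fold change 2.56 ± 0.38, FDR 0.00119; chromosome 1, 105780718 to 105847981, plus strand). Tnfrsf11b, which encodes osteoprotegerin, a soluble decoy for RANK ligand and TRAIL, had 5.48, 3.81 and 7.22 CPM in HepKO and 2.50, 3.04 and 2.46 CPM in WT (log2 fold change 1.04 ± 0.28, FDR 0.0176). Leaving out HepKO replicate 3, WT replicate 1 or WT replicate 3 ended the osteoprotegerin call at FDRs of 0.0515 to 0.0725. RANK ligand, Tnfsf11, was too low to measure, with 8 counts in 1 HepKO library and 2 counts in 1 WT library.

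Tnf and Tnfrsf1a were called higher, and Tnfrsf1b was not called. Tnf transcripts were scarce, at 20, 30 and 24 counts in HepKO and 4, 3 and 5 counts in WT, which is 0.541 ± 0.173 CPM in HepKO and 0.122 ± 0.0335 CPM in WT (SD, n = 3 each). The groups did not overlap and the log2 fold change was 2.12 ± 0.62 (FDR 0.0267), but without HepKO replicate 2 or 3 or any single WT library the call was lost (FDRs of 0.0594 to 0.0986). Tnfrsf1a, the widely expressed death domain receptor for TNF, was abundant and rose modestly, with 105, 103 and 111 CPM in HepKO and 85.1, 82.0 and 64.8 CPM in WT (log2 fold change 0.46 ± 0.12, FDR 0.0145; FDR 0.0580 without HepKO replicate 3). Tnfrsf1b, the other TNF receptor, found mainly on immune and endothelial cells, had 39.7, 34.7 and 35.1 CPM in HepKO and 28.3, 38.1 and 61.0 CPM in WT, and was not called (log2 fold change -0.22 ± 0.26, FDR 0.552). The WT values of Tnfrsf1b spanned the HepKO values on both sides.

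Ltbr, the lymphotoxin beta receptor, was the 1 member that fell under TMM. It had 55.3, 55.2 and 47.1 CPM in HepKO and 69.9, 75.4 and 78.9 CPM in WT, with no overlap (log2 fold change -0.51 ± 0.10, FDR 0.00477). The fall depended on scaling: under library totals the log2 fold change was 0.00 and the FDR 0.989, while the median of all genes was 0.52. Ltbr sits between Cd27 and Tnfrsf1a on chromosome 6, 69.6 kb from the first and 35.5 kb from the second, and both of these neighbours rose under TMM and library totals alike. Ltb, a ligand subunit for this receptor, moved the other way, with 122, 118 and 65 counts in HepKO and 1, 15 and 15 counts in WT. In CPM these were 2.10, 2.63 and 1.65 in HepKO and 0.0338, 0.418 and 0.439 in WT, a rise of 6.98-fold (log2 fold change 2.80 ± 0.65, FDR 0.00952). Lta, the other lymphotoxin subunit gene, had at most 5 counts in any library and was not tested, and Tnf lies between Lta and Ltb in a cluster on chromosome 17. Tnfsf14, a further ligand of Ltbr, had 38 counts in all over the HepKO libraries and 8 over the WT libraries and was not tested. Tnfrsf14, which also binds the Tnfsf14 product, had 5.68, 4.41 and 5.64 CPM in HepKO and 1.72, 3.79 and 4.07 CPM in WT, and was not called under TMM (log2 fold change 0.71 ± 0.32, FDR 0.117), although it was under library totals (FDR 0.0142).

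Fas, the archetypal death receptor of hepatocytes, rose by a small margin. It had 39.0, 28.2 and 28.7 CPM in HepKO and 20.6, 21.2 and 25.6 CPM in WT (log2 fold change 0.51 ± 0.15, FDR 0.0290), and the call was lost without HepKO replicate 1, WT replicate 1 or WT replicate 2 (FDRs of 0.0788 to 0.0883). Its ligand gene Fasl, a product of cytotoxic lymphocytes, had 64, 16 and 15 counts in HepKO and 12, 27 and 9 counts in WT. Fasl overlapped between the groups, was not called (log2 fold change 0.38 ± 0.65, FDR 0.684) and had a log2 fold change of -0.37 without HepKO replicate 1. Tnfrsf21, a death domain receptor, had 16.1, 9.92 and 14.6 CPM in HepKO and 7.57, 7.19 and 5.94 CPM in WT (log2 fold change 0.97 ± 0.20, FDR 0.00638). Ngfr, the neurotrophin receptor, which marks stellate and other mesenchymal cells in liver, had 4.13, 4.95 and 5.97 CPM in HepKO and 2.91, 2.84 and 2.55 CPM in WT (log2 fold change 0.86 ± 0.23, FDR 0.0181). The Ngfr call was lost without HepKO replicate 3 or WT replicate 3 (FDRs of 0.0598 and 0.0740). With Tnfrsf1a and Tnfrsf10b, 5 death domain receptors were called higher, where 19.4% of all tested genes were, and Tnfrsf25, the sixth in the set, was too low to test; the grouping was made with the values known. Tnfrsf19, an orphan receptor, had 17.2, 17.0 and 15.3 CPM in HepKO and 15.9, 18.1 and 9.63 CPM in WT. It was not called under TMM (FDR 0.546), although it was under library totals (log2 fold change 0.69, FDR 0.0325).

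Receptors and ligands of lymphocyte and antigen-presenting cell costimulation were near the limit of detection in WT. Cd40, which antigen-presenting cells use to receive T cell help, had 108, 89 and 53 counts in HepKO and 0, 12 and 3 counts in WT. The groups were far apart (1.73 ± 0.338 CPM in HepKO and 0.141 ± 0.173 CPM in WT; log2 fold change 3.54 ± 0.81, FDR 0.00932), and most WT counts lay in WT replicate 2. Without that library 3 WT counts remained, and the ratio of HepKO to WT was 37.3 (95% counting interval 12.6 to 182, which covers counting error only). Cd27, carried by T, B and NK cells, had 53, 40 and 32 counts in HepKO and 10, 8 and 14 counts in WT (log2 fold change 1.43 ± 0.47, FDR 0.0413), and lost its call when any of the 6 libraries was left out (FDRs of 0.0764 to 0.133). Tnfrsf13b, which encodes the B cell receptor TACI, had 72, 40 and 42 counts in HepKO and 13, 13 and 7 counts in WT (log2 fold change 1.67 ± 0.48, FDR 0.0237). The Tnfrsf13b call was lost without HepKO replicate 1 or 3 or WT replicate 2 or 3 (FDRs of 0.0562 to 0.0824). Its ligand genes Tnfsf13b, which encodes BAFF, and Tnfsf13, which encodes APRIL, overlapped between the groups, with log2 fold changes of 0.22 ± 0.41 (FDR 0.709) and 0.82 ± 0.74 (FDR 0.421). Tnfsf13 shares 60.0% of its exon sequence with Tnfsfm13 and 13.5% with an antisense gene, and its count is uncertain. Tnfrsf4, a T cell receptor for costimulation, had 18, 6 and 17 counts in HepKO and 0, 9 and 13 in WT and was not called (FDR 0.759).

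The 17 untested members were 10 ligands, 6 receptors and Traf5. None had more than 44 counts in a library, and 9 of them had fewer than 10 counts in every library. Cd70, Tnfsf4 and Traf5 were almost empty, with 2 counts, 1 count and 2 counts over all 6 libraries. Cd40lg, Tnfsf9, Tnfsf18, Tnfrsf8, Tnfrsf13c and Tnfrsf25 had at most 20 counts in any library and overlapped between the groups. Tnfrsf18 had 31, 4 and 16 counts in HepKO and 4, 4 and 3 counts in WT. Tnfrsf17, a receptor of plasma cells, had 0, 8 and 5 counts in HepKO and none in WT. A count near 0 was not taken as absence of the transcript.

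In 3 of the 17 untested genes the groups did not overlap. Among all tested genes, HepKO lay above WT without overlap in 27.1% and below in 26.4%. That share was not computed for genes under the filter, so the 3 have no like background. Tnfrsf9, an activation receptor of T and NK cells, had 27, 8 and 44 counts in HepKO and 0, 3 and 0 in WT, a ratio of 18.4 (95% counting interval 6.08 to 91.3). Tnfsf8, the ligand of Tnfrsf8, had 22, 9 and 23 counts in HepKO and 0, 2 and 2 counts in WT. Tnfsf15, a cytokine made largely by endothelial cells, went the other way, with 1, 2 and 0 counts in HepKO and 9, 10 and 5 counts in WT, a HepKO to WT ratio of 0.0875 (95% counting interval 0.0169 to 0.288). When all genes with a count were tested, Tnfrsf9 (edgeR FDR 0.00234) and Tnfsf8 (FDR 0.0448) were called higher and Tnfsf15 was not called (FDR 0.134). In that test 10.3% of 29794 genes were called higher.

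The TRAF adaptors divided into a pair that rose and 3 that were not called. Traf3, which restrains the alternative NF-kB pathway by targeting the kinase product of Map3k14 for degradation, had 17.6, 17.2 and 17.0 CPM in HepKO and 7.70, 9.0 and 11.1 CPM in WT. The HepKO libraries were nearly identical and all above WT (log2 fold change 0.89 ± 0.15, FDR 0.00233). Traf1, itself an NF-kB target in many cells, had 2.08, 0.669 and 2.13 CPM in HepKO and 0.270, 0.585 and 0.585 CPM in WT (log2 fold change 1.75 ± 0.56, FDR 0.0368). HepKO replicate 2 barely exceeded WT for Traf1, and the call was lost without HepKO replicate 1 or 3 or any single WT library (FDRs of 0.0649 to 0.114). Traf2, which binds many receptors of the family, had 7.56, 8.96 and 9.35 CPM in HepKO and 6.28, 7.22 and 6.35 CPM in WT, with a log2 fold change of 0.38 ± 0.16 (FDR 0.102), and Traf4 had 24.3, 21.2 and 24.5 CPM in HepKO and 30.6, 25.2 and 21.3 CPM in WT, with one of -0.14 ± 0.14 (FDR 0.480). Traf6, which also serves interleukin and Toll-like receptors, had 23.1, 27.4 and 24.4 CPM in HepKO and 23.5, 26.3 and 24.5 CPM in WT (log2 fold change 0.01 ± 0.11, FDR 0.939). Under library totals, where the median of all genes is 0.52, Traf2 (FDR 0.00286) and Traf6 (FDR 0.00535) were called higher and Traf4 was not (log2 fold change 0.37, FDR 0.0578).

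Promoter sequences were read for the member with the lowest p and for the called members with a match to the NF-kB consensus, because NF-kB acts downstream of these receptors. The RefSeq table (GRCm38.p6) held 38 of the 48 members, and the 250 bases before each start were searched on both strands. The NF-kB consensus was found in 2 of the 14 members called higher that had an entry, Ltb and Traf3, and in 8.23% of 27025 genes. TGANTCA, a motif of AP-1, was found in 1 of the 14 and in 7.82% of all genes. TGACNNNGC, the core of the antioxidant response element, which can overlap TGANTCA, was found in 1 of the 14 and in 11.5% of all genes. Capitals mark the NF-kB match, which starts 87 bases before the Ltb start and 10 bases before the Traf3 start, and Tnfrsf12a has no match to any of the 3 motifs in this window. The windows are chr17:23677450-23677699 (minus strand) for Tnfrsf12a, chr17:35194257-35194506 (plus strand) for Ltb and chr12:111166120-111166369 (plus strand) for Traf3.
Tnfrsf12a: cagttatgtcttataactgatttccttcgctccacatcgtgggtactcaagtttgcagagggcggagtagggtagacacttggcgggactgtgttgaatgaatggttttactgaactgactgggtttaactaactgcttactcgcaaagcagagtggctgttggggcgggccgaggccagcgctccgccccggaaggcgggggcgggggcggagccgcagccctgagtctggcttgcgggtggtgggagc
Ltb: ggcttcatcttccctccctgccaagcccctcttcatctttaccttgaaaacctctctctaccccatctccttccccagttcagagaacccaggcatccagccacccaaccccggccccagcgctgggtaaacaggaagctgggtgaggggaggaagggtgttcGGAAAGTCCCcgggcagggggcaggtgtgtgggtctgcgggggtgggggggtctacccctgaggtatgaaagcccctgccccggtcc
Traf3: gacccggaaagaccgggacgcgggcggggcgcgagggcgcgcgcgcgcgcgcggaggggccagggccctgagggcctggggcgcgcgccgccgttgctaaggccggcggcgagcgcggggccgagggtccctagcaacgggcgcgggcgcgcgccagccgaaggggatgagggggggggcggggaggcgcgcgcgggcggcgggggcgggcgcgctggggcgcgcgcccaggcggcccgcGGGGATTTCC

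Levels were compared between genes per kilobase of exon (RPKM, from TMM-scaled CPM and the union of annotated exons). In HepKO the order was Tnfrsf1a at 41.1 ± 1.6 RPKM, Ltbr at 22.3 ± 2.0, Fas at 15.5 ± 2.96, Tnfrsf12a at 14.6 ± 2.05 and Tnfrsf1b at 9.56 ± 0.728 (SD, n = 3). Only Fas and Tnfrsf12a overlapped among these neighbours in the order. In WT, Ltbr at 31.7 ± 1.91 RPKM and Tnfrsf1a at 29.8 ± 4.23 overlapped, as did Tnfrsf1b at 11.1 ± 4.39 and Fas at 10.9 ± 1.33, and Traf4 followed at 7.82 ± 1.41. Tnfrsf12a thus ranked 4 of the 48 members in HepKO and 12 in WT, where it had 1.44 ± 0.129 RPKM. The most abundant ligand in both groups was Tnfsf12, at 5.13 ± 0.524 RPKM in HepKO and 3.47 ± 0.182 RPKM in WT. Tnfsf10 followed among the ligands, at 3.62 ± 0.587 RPKM in HepKO and 2.60 ± 0.258 RPKM in WT, and ranked 9 of the 48 members in both groups. Tnf had mean levels of 0.330 RPKM in HepKO and 0.0743 RPKM in WT.

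**Figure D3:**
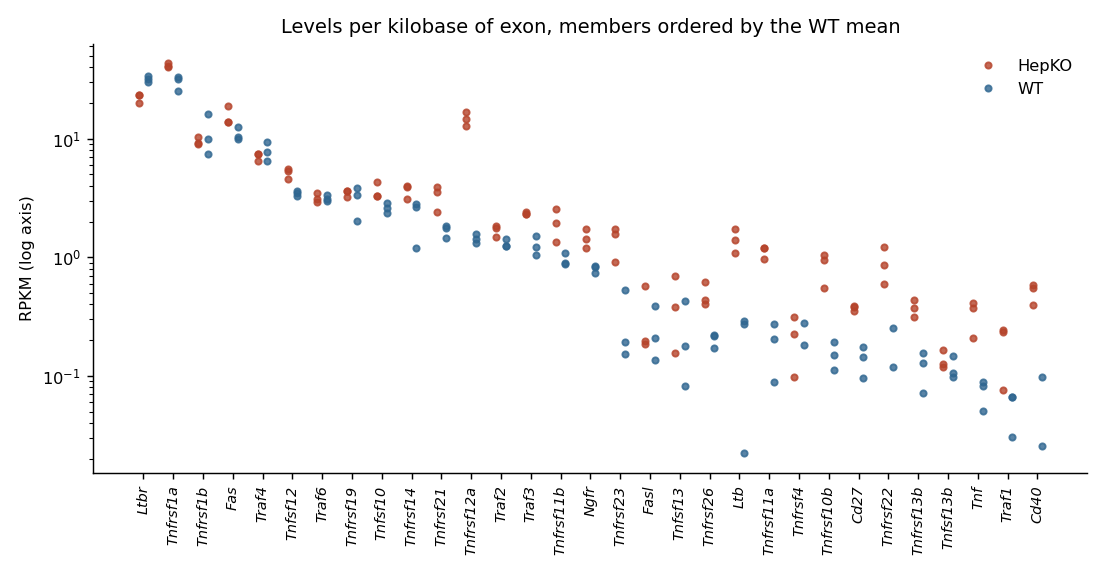
RPKM (log axis) of the 31 tested members in each HepKO and WT library, ordered by the WT mean; libraries with 0 counts (WT replicate 1 for Cd40, Tnfrsf22 and Tnfrsf4) are not drawn. Tnfrsf12a stands out from its neighbours in the order, at 14.6 RPKM in HepKO and 1.44 RPKM in WT.

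The genes that carry the signal from these receptors were followed in lists chosen with earlier results known. Of 30 genes of receptor-proximal signalling, 9 rose and 4 fell (median log2 fold change 0.07). Without HepKO replicate 1, 10 rose. Over all tested genes 19.4% rose and 18.8% fell. With library totals 22 of the 30 rose and 0 fell (median 0.58), against 46.3% and 5.76% of all tested genes. Those that rose included the feedback inhibitors Tnip1 (26.2 ± 0.745 CPM in HepKO and 7.57 ± 1.88 CPM in WT; log2 fold change 1.79 ± 0.17, FDR 1.93e-04) and Tnfaip3, which encodes the ubiquitin-editing enzyme A20 (log2 fold change 1.82 ± 0.28, FDR 0.00168). The necroptosis genes Ripk3 (3.13 ± 0.361 CPM in HepKO and 0.855 ± 0.438 CPM in WT, FDR 0.00883) and Mlkl (24.2 ± 4.64 CPM in HepKO and 6.95 ± 2.75 CPM in WT, FDR 0.00213) rose as well, as did Map3k14, the kinase of the alternative NF-kB pathway (log2 fold change 1.06 ± 0.26, FDR 0.0130). The death adaptors and initiator caspase were not called: Fadd had a log2 fold change of -0.17 (FDR 0.348), Tradd one of 0.21 (FDR 0.504), Ripk1 one of 0.04 (FDR 0.797) and Casp8 one of -0.05 (FDR 0.794). Under library totals Tradd, Ripk1 and Casp8 were called higher (FDRs of 0.0279, 0.00448 and 0.0202) and Fadd was not (FDR 0.0684). Genes that fell under TMM were the kinases Map3k7 (log2 fold change -0.67 ± 0.10, FDR 0.00120), Chuk (-0.64 ± 0.10, FDR 0.00181) and Map3k5 (-0.60 ± 0.11, FDR 0.00336), and the caspase inhibitor Cflar (-0.41 ± 0.11, FDR 0.0156). None of these 4 was called under library totals (FDRs of 0.218, 0.326, 0.539 and 0.418), where Cflar had a log2 fold change of 0.10, and the Cflar call was also lost without WT replicate 1 (FDR 0.0546).

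NF-kB subunits and feedback genes were mostly higher. Of 19, 16 rose and 0 fell, with a median log2 fold change of 1.39, and 18 were higher under library totals. Nfkbia alone had a negative log2 fold change, and its groups overlapped (-0.25 ± 0.20, FDR 0.372). Under library totals Nfkbia had a log2 fold change of 0.26 and was not called either (FDR 0.291). With 1 library left out, 12 to 14 rose (12 without HepKO replicate 1), and with no filter 12 rose. List counts in this paragraph stand against 19.4% of all tested genes called higher under TMM, 46.3% under library totals and 10.3% with no filter. Ccl2, a chemokine for monocytes, had 28.0, 21.8 and 28.7 CPM in HepKO and 0.439, 1.03 and 0.381 CPM in WT (log2 fold change 5.38 ± 0.34, FDR 5.50e-05, and 6.02 without WT replicate 2). Bcl3, a nuclear IkB protein (1.86 ± 0.14, FDR 6.56e-05), and the adhesion molecule Icam1 (2.32 ± 0.25, FDR 3.97e-04) followed. The alternative pathway subunits Relb (log2 fold change 2.95 ± 0.45, FDR 0.00164, and 3.53 without WT replicate 2) and Nfkb2 (1.39 ± 0.18, FDR 6.06e-04) rose. All 4 genes of the shedding list rose under TMM and library totals and with any single library left out; Adam10 and Adam17 encode proteases that cut ligands and receptors from the membrane, and Rhbdf1 and Rhbdf2 encode inactive partners of the Adam17 protease. Those with the lowest p were Rhbdf2 (0.85 ± 0.15, FDR 0.00273), Rhbdf1 (1.08 ± 0.21, FDR 0.00396) and Adam17 (0.66 ± 0.13, FDR 0.00425). Of 7 related genes that the symbol rule left out, 6 were tested and 2 rose. The count was 1 without HepKO replicate 1 or 3 or WT replicate 1 or 3, and 3 without HepKO replicate 2. The 2 were Eda2r (12.2 ± 2.53 CPM in HepKO and 1.77 ± 1.14 CPM in WT, FDR 0.00333) and its ligand gene Eda (log2 fold change 0.85 ± 0.24, FDR 0.0220). The Eda call was lost without HepKO replicate 1 or 3 or WT replicate 1 or 3 (FDRs of 0.0642 to 0.0753), and Relt was not called (FDR 0.0514). Ripk3, Mlkl, Map3k14, Map3k5, Chuk, Cflar, Relb, Nfkb2 and Nfkbia and the uncalled death adaptors were named after their values were seen.

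Markers of several other liver cell types were higher in HepKO, and those of B cells and endothelium overlapped between the groups. Counts of markers called higher stand against 19.4% of all tested genes, 46.3% under library totals and 10.3% with no filter. In bulk liver more cells of a type and more RNA per cell cannot be told apart. Recruited macrophage and monocyte markers summed to 546 to 812 CPM in HepKO and 108 to 197 CPM in WT. All 11 of the 12 that were tested rose (8 to 10 with 1 library left out, 10 without HepKO replicate 1). Under library totals 11 were called higher, but with no filter only 5 were. Trem2 had 4 counts in HepKO replicate 1 and 0 in the other libraries. Cholangiocyte and ductular markers summed to 264 to 724 CPM in HepKO and 80.7 to 95.5 CPM in WT. Of these 12 genes 11 were tested and 4 rose (5 without HepKO replicate 1 or 3, 2 without any 1 of the WT libraries). Under library totals 7 were called higher, and with no filter 2. Spp1 is in both of these lists, with 134, 515 and 201 CPM in HepKO and 35.2, 54.4 and 39.9 CPM in WT. Without Spp1 the macrophage sums were 297 to 412 CPM in HepKO and 68.6 to 142 CPM in WT, and the ductular sums 130 to 209 CPM in HepKO and 41.1 to 45.5 CPM in WT.

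Kupffer cell markers summed to 589 to 787 CPM in HepKO and 410 to 487 CPM in WT, with 3 of 8 higher and 1 lower. A large part of these sums came from C6 in every library except HepKO replicate 1, and the most in WT replicate 1. C6 was not called and had 31.0, 284 and 276 CPM in HepKO and 338, 205 and 240 CPM in WT. Without C6 they were 305 to 589 CPM in HepKO and 149 to 276 CPM in WT. The Kupffer markers called higher numbered 2 without HepKO replicate 1 or 3, 6 without HepKO replicate 2, 5 without WT replicate 2 and 0 without WT replicate 3. With no filter 1 was called higher. The 1 lower call was lost without HepKO replicate 3, WT replicate 2 or WT replicate 3, and with no filter. Under library totals 6 Kupffer markers were called higher and 0 lower. Stellate cell and myofibroblast markers (7 of 12 higher) summed to 579 to 694 CPM in HepKO and 232 to 341 CPM in WT. T and NK cell markers summed to 12.2 to 17.3 CPM in HepKO and 3.58 to 8.02 CPM in WT. Of these 12 genes 11 were tested and 3 rose (5 without WT replicate 2). Neutrophil markers summed to 7.13 to 21.7 CPM in HepKO and 1.90 to 4.79 CPM in WT. Of these 8 genes only 3 were tested and all 3 rose (2 to 4 with 1 library left out). Ly6g was at 0 in all libraries except HepKO replicate 3. Under library totals 10 stellate, 7 T and NK and 3 neutrophil markers were called higher, and with no filter 7, 3 and 4.

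B cell markers summed to 12.7 to 23.9 CPM in HepKO and 15.5 to 18.8 CPM in WT. Of these 10 genes 9 were tested, with 1 higher and 1 lower (0 lower without HepKO replicate 2 or 3 or any 1 WT library). Under library totals 1 B cell marker was called higher and 0 lower. Endothelial markers summed to 203 to 258 CPM in HepKO and 183 to 226 CPM in WT, with 2 of 10 higher (1 without HepKO replicate 1 or 2 or WT replicate 1 or 3, and 3 without WT replicate 2). Under library totals 6 endothelial markers were called higher, and with no filter 3. All 10 hepatocyte markers were lower under TMM, where 18.8% of all tested genes were, and 6 under library totals. With 1 library left out, 7 or 8 were lower (8 without HepKO replicate 1). WT replicate 2 had the highest WT sums of the macrophage, T cell, B cell, neutrophil, ductular, stellate and endothelial lists, but not of the Kupffer or hepatocyte lists. Single genes decided 2 of these. Without C6 the Kupffer sums were 149, 276 and 170 CPM in WT replicates 1 to 3, highest in replicate 2. Without Spp1 the ductular sums were 45.5, 41.1 and 44.5 CPM, lowest in replicate 2. Members did not share 1 order: WT replicate 2 had the highest WT values of Cd40, Tnfrsf22 and Tnfrsf23 but the lowest of Tnf and Cd27. Ltb and Tnfrsf1b were highest in WT replicate 3. The part of these cell types in the changes of the TNF family was not tested.

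**Figure D4:**
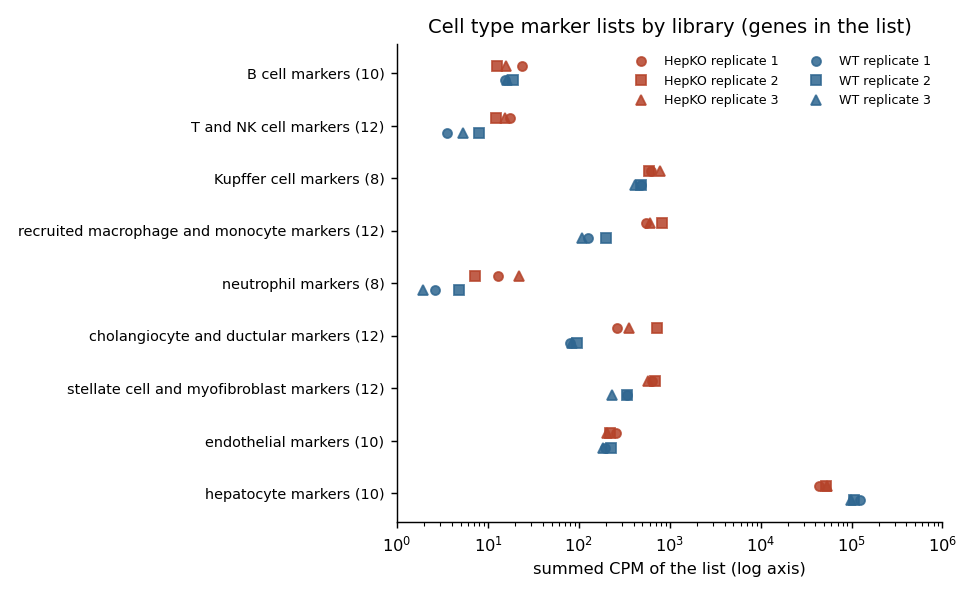
Summed CPM (log axis) of 9 cell type marker lists in each HepKO and WT library, with the number of genes in each list. Macrophage, Kupffer, ductular, stellate, neutrophil and T cell lists lie higher in all HepKO libraries, the B cell and endothelial lists overlap, and hepatocyte markers lie lower in HepKO.

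**Figure D5:**
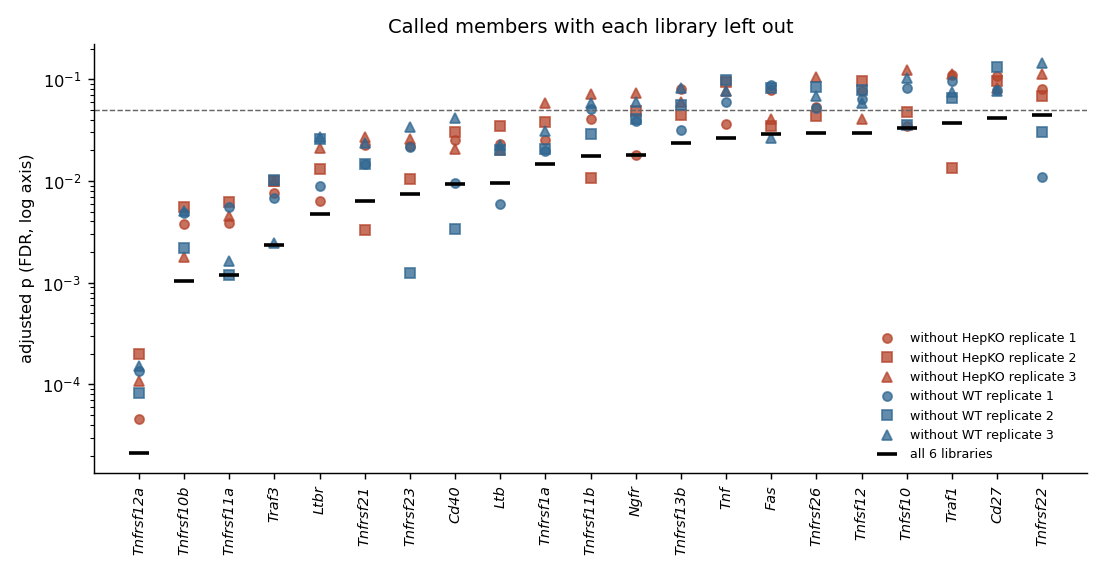
Adjusted p (FDR, log axis) of the 21 called members with all 6 libraries (black bars) and with each library left out (symbols), with a dashed line at 0.05. Tnfrsf12a, Tnfrsf10b, Tnfrsf11a, Traf3, Ltbr, Tnfrsf21, Tnfrsf23, Cd40 and Ltb stay under the line in all 6 cases, and the other 12 cross it in at least 1.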

How the data were processed

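Liver polyA RNA of 3 HepKO and 3 WT samples was sequenced from stranded libraries, per the labels' protocols. The authors deposited unnormalized counts for each gene; STAR 2.7.11a, featureCounts, Subread 2.0.0 and edgeR 3.40.2 with mm10 are named, per the submitters' processing notes, without order or settings. Of 56350 gene IDs, 55480 matched GENCODE M21, and all 48 members matched. Counts were filtered with filterByExpr (10 counts minimum, a cutoff of 0.254 CPM in 3 libraries, 16051 genes kept), scaled with TMM and tested with the robust quasi-likelihood test of edgeR 4.0.16 (R 4.3.3), 2-sided, with no covariate, and Benjamini-Hochberg adjustment over all tested genes (FDR under 0.05). Errors are SE for log2 fold changes (HepKO over WT) and SD otherwise. Intervals and counts near 0 cover counting error only, since reads without molecular identifiers are not independent molecules.

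Members were all accounted for, and up to 3 genes of lowest p were named in each pathway list, others only where said. The members and lists were chosen with earlier results of these data known. Alternatives were DESeq2 1.42.0, limma 3.58.1 (voom), other scalings and filters, each library left out, a replicate block, stricter thresholds, and, chosen after seeing the data, no robust estimation and marker sums without Spp1 or C6. The test was tried on simulated data.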

Additional observations from a re-analysis of the deposited data

How the results depend on the processing

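All 20 members called higher kept a positive fold in every setting run, and 8 kept their call in all of them apart from the 2-fold threshold. With each library left out in turn, 10 to 18 members were called higher and 1 lower, and 4440 to 5625 genes in all were called (2341 to 2835 higher, 2099 to 2930 lower). Other counts that moved by over 1.5 times, for the members, were 0 lower under library totals, 8 higher at an FDR under 0.01, and 13 higher with 0 lower at 2-fold or more. For all genes they were 7429 higher and 924 lower under library totals, 3543 (1785 higher, 1758 lower) at an FDR under 0.01, and 2942 (2040 higher, 902 lower) at 2-fold or more, compared with 6138 (3118 higher, 3020 lower).

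Signs turned for Tnfrsf1b (0.29), Ltbr (0.0019), Traf4 (0.37) and Cflar (0.10) under library totals, which shift the median of all genes to 0.52, and for Traf6 (-0.0027) with no filter. With 1 library left out, the log2 fold change ranged over -0.37 to 0.92 for Fasl, -0.12 to 1.15 for Tnfrsf4, -0.066 to 0.086 for Traf6, -0.44 to 0.15 for Tnfrsf1b and -0.027 to 0.40 for Tnfrsf19, none of them called. With no filter 5 members lost their call: Tnf, Tnfsf12, Tnfrsf22, Tnfrsf26 and Cd27. DESeq2 lost Tnfrsf22 (adjusted p = 0.0779) and limma-voom lost Tnf (adjusted p = 0.0552) and Traf1 (adjusted p = 0.105). The cause of these changes was not tested.

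The labels give both groups replicate numbers 1 to 3, but deviations of same-numbered libraries correlated at -0.15, -0.12 and 0.04 across genes, so the numbers were not taken as pairs. With the replicate number as a block, 9 members were called higher. The filter left 17 members untested, at 44 counts or fewer in a library, and with no filter Tnfrsf9 and Tnfsf8 were called among them. Few counts limit the precision of these and of tested members such as Tnf, with at most 30 counts in a library.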
